A study of Mus musculus with 50 samples.

Results

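Transplant and primary mouse sarcomas were compared after one treatment, 20 Gy of radiation combined with an antibody against PD-1. The comparison used 12 of the 50 libraries in the series, 4 transplants and 8 primary tumors, which were chosen by their group labels alone. All differences are transplant minus primary, over the 19327 of 37469 genes that passed a filter on low counts. The question was how tumors of the same strain and the same induction differ 3 days after combined treatment when they grow from a cell line rather than in the animal where they arose.

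The tumors were p53/MCA sarcomas of 129/SvJae mice. Primary tumors were induced in Trp53 fl/fl mice aged 6 to 10 weeks, in which adenovirus carrying Cre (Adeno-Cre) deleted Trp53 at the injected site of the gastrocnemius muscle and 300 µg of the carcinogen 3-methylcholanthrene (MCA) was then given. Transplants grew in syngeneic mice from 50000 cells of a single line, named 402230, placed with matrigel in the same muscle, so that the 4 transplants are 4 hosts of 1 line and the 8 primary tumors are 8 separate tumors. The spread among transplants is thus a spread among hosts. For any gene below, an effect of growth as a transplant cannot be told apart from a trait of this 1 line. Per the labels, tumors of both kinds were treated at about 150 mm3 with 200 µg of the anti-PD-1 antibody muDX400, given into the peritoneum just before 20 Gy to the hind limb, and were harvested 3 days later. The labels give no age for the transplant hosts. Total RNA of whole tumors was sequenced in bulk, so that fewer cells of a type and less RNA per cell cannot be told apart in any value below.

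PD-1 is an inhibitory receptor of activated T cells, and an antibody that blocks it releases these cells from restraint. Radiation breaks DNA, kills dividing cells and can evoke interferon responses. A sarcoma is a tumor of mesenchymal cells, which make the collagens, basement membrane and elastic fibers of connective tissue, while the leukocytes within it come from the host.

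Total counts of the 12 libraries ran from 34742377 to 51436481. Trp53, the gene deleted in the tumor cells, had 39.8, 45.0, 40.2 and 44.5 CPM (counts per 1000000 reads of the TMM-scaled library total) in the transplants and 21.4, 31.5 and 51.9 (lowest, median and highest) in the primary tumors. The groups overlapped (log2 fold change 0.39, SE 0.21, edgeR adjusted p = 0.253), and a count over the whole gene that includes host cells does not check the deletion. Vim, an intermediate filament of mesenchymal cells, lay between 1482 and 4309 CPM in the 12 libraries, and Ptprc, the pan-leukocyte marker CD45, between 59.9 and 620. Skeletal muscle RNA varied most: the summed level of 11 muscle fiber genes was 2632, 13491, 9752 and 1800 CPM in transplants and 14.3, 1978 and 86617 in primary tumors, where replicate 4 was highest and replicates 1 and 5 lowest. These same 3 primary tumors lay at the ends of the first principal component, which held 40.2% of the variance. Spearman's rho was 0.948 to 0.976 between transplants and 0.847 to 0.968 between primary tumors, and a check for libraries deposited more than once found none among the 34 pairs within a group (lowest chi-square per degree of freedom 135.2).

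After 20 Gy and anti-PD-1, 588 genes were higher in transplants (3.04% of genes tested) and 719 were lower (3.72%), together 6.76%, at an edgeR adjusted p under 0.05. The median log2 fold change over all genes was -0.04. All 4 transplants lay above all 8 primary tumors in 195 genes (1.01%) and below them in 248 (1.28%), and 152 and 175 of these passed the test. The largest fold changes among well expressed genes (average log2 CPM of at least 2) that passed and whose groups did not overlap were those of Dmrta2, Dlx1, Kcnk12, Nts and Xlr3b on the higher side and of Igfbp2, Col15a1, Foxs1, Robo2 and Tmeff2 on the lower. The fit used all 48 tumors of 8 groups, and the counts changed with the samples and the tool. On the 12 libraries alone, where the filter, the scaling and the spread were also set anew, edgeR called 2 of 17674 genes (Gm17833 and Zfp51, both higher) and DESeq2 274 higher and 731 lower. In that edgeR fit all 1238 called genes present kept their direction and 1234 had an unadjusted p under 0.05. Both fits take the fold change from the same 12 libraries, so this agreement gives no separate support. Without transplant replicate 3 the counts were 74 and 80, without primary replicate 4 they were 1066 and 1287, and 61 and 76 genes were called in every one of the 12 fits that left out 1 library.

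**Figure D1:**
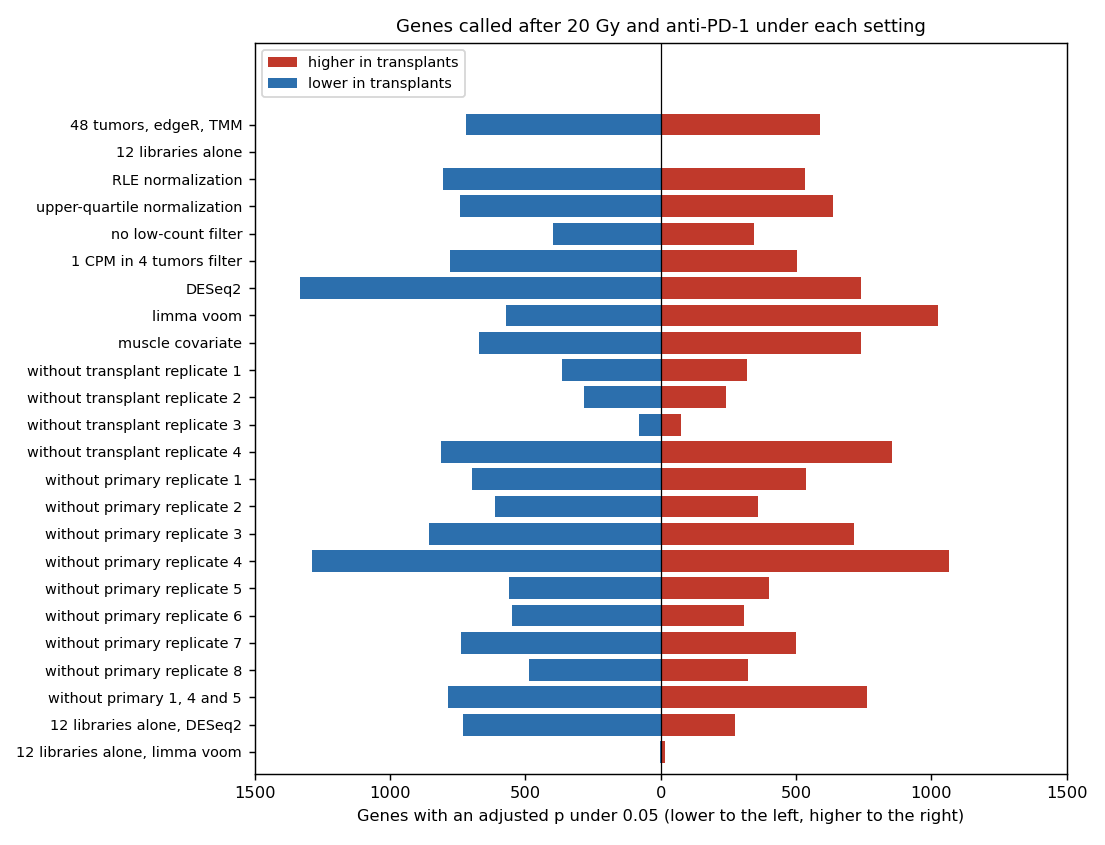
Number of genes with an adjusted p under 0.05 after 20 Gy and anti-PD-1 under each setting, with genes higher in transplants drawn to the right (red) and genes lower in transplants to the left (blue). The counts of 588 and 719 fell to 74 and 80 without transplant replicate 3 and rose to 1066 and 1287 without primary replicate 4, and 2 genes were called from the 12 libraries alone.

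The genes described next had the largest fold changes among those that passed, were well expressed and did not overlap between the groups, a rule that 210 genes met, 94 of them higher. For genes so chosen, here and below, the lack of overlap was required by the rule. Dmrta2, a DM-domain transcription factor of forebrain development, had 13.9, 2.17, 8.40 and 11.3 CPM in transplants and 0.0977, 0.365 and 1.96 in primary tumors. It was 17.1-fold higher (log2 fold change 4.09, SE 0.64, edgeR adjusted p = 0.000226), although transplant replicate 2 came close to the highest primary tumor. Dlx1, a homeobox factor of the forebrain and face, had 8.94, 2.63, 3.94 and 6.94 CPM against a median of 0.209 and a highest primary value of 2.02 (log2 fold change 3.84, adjusted p = 0.0399). Its call was weak, since it passed in 1 of the 12 fits that left out a library.

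Kcnk12, a potassium channel subunit, had 15.05, 2.56, 5.91 and 5.79 CPM in transplants and 0.176, 0.558 and 1.18 in primary tumors. It was 11.3-fold higher (log2 fold change 3.49, SE 0.68, edgeR adjusted p = 0.00299). Nts, the precursor of the peptide neurotensin, had 13.6, 15.5, 32.4 and 9.92 CPM against 0.215, 1.37 and 3.41, and was 11.2-fold higher (log2 fold change 3.49, SE 0.61, edgeR adjusted p = 0.00097). The lowest transplant thus stood well above the highest primary tumor for Nts, and both genes passed in all 12 fits that left out a library.

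The 300 bases around the transcription start, from 250 before it to 50 after, were searched on both strands for CATTCC (bound by TEAD factors), TGANTCA (AP-1) and TTCNNNGAA (STAT) in the 5 genes at the head of each direction. Windows came from RefSeq on GRCm38.p6, and over all 32851 windows these letters occurred in 14.7%, 7.81% and 8.30%. Of the 10 genes, 9 had a window and 4 held a motif: Kcnk12, Nts, Igfbp2 and Robo2. Igfbp2 had 2 windows and Robo2 had 3, each with a motif in 1 of them. The shares above are for single windows and single motifs, and the share with any of the 3 motifs was not counted. The windows of Kcnk12 and Nts, genes that were higher in every transplant, are shown with the motif in capitals, 5′ to 3′ on the strand of the gene. That of Nts (chr10:102490369-102490668, - strand) holds TGANTCA from position -207 relative to the start, and that of Kcnk12 (chr17:87797945-87798244, - strand) holds CATTCC from position -150.
Nts: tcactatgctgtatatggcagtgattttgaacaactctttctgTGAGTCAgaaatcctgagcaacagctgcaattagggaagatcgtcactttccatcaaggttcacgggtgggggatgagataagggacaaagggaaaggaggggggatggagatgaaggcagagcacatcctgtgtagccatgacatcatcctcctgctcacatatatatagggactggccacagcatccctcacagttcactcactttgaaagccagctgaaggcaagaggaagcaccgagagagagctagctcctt
Kcnk12: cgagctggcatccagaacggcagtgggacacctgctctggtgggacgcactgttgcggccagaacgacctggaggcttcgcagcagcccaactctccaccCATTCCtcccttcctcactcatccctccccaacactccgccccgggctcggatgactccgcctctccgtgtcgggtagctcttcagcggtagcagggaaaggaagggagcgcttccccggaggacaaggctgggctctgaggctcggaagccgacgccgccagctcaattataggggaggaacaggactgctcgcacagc

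Xlr3b, an X-linked lymphocyte-regulated gene, had 10.6, 4.49, 8.81 and 6.76 CPM in transplants and at most 2.16 in primary tumors (log2 fold change 3.30, edgeR adjusted p = 0.0366). Wincr1, a long non-coding RNA, had 31.8, 14.3, 55.4 and 14.6 CPM against 1.48, 2.96 and 11.8 (log2 fold change 2.72, edgeR adjusted p = 0.00736). Prl2c2, a proliferin of the prolactin family, reached 90.9, 52.5, 131.3 and 137.2 CPM against 1.11, 14.8 and 36.5 (log2 fold change 2.68, edgeR adjusted p = 0.0372). Its near copy Prl2c3 had 23.1, 8.67, 23.0 and 15.6 CPM against a median of 4.93 and did not pass (adjusted p = 0.263), and reads of such copies may have been split between them. Xlr3b passed in 3 and Prl2c2 in 5 of the 12 fits that left out a library.

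**Figure D2:**
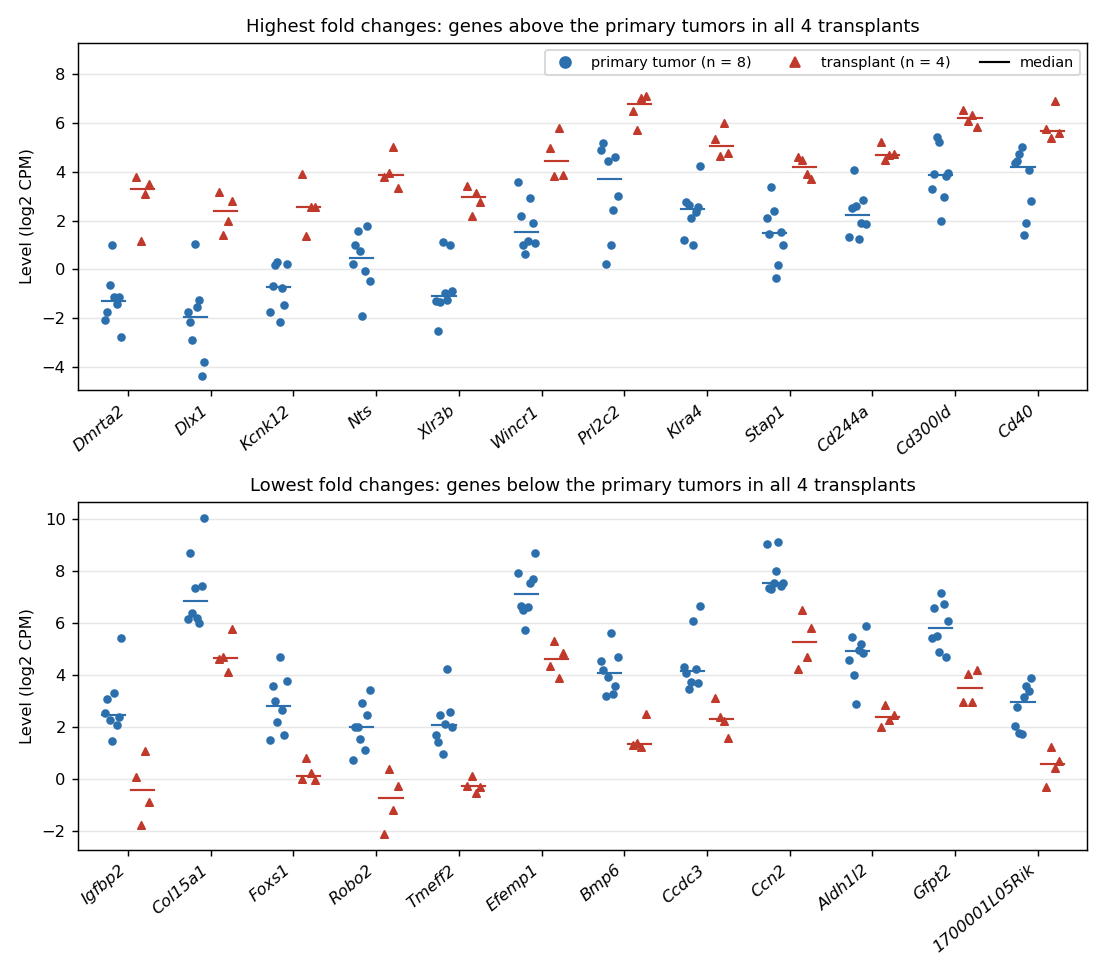
Level of the 12 genes with the highest and the 12 with the lowest fold change among well expressed genes that passed and whose groups did not overlap, as log2 CPM (prior count 2) in each library, with primary tumors as blue circles (n = 8), transplants as red triangles (n = 4) and bars at the medians. As this choice requires, every triangle lies above every circle of its gene in the upper panel of the plot and under them in the lower panel.

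The 12 genes with the largest fold changes on the higher side include Klra4, Stap1, Cd244a, Cd300ld and Cd40, which are known from leukocytes. The share of leukocyte genes among all genes tested was not counted. Klra4 was also present in a library of line 402230 with few leukocyte transcripts, as given below. The pan-leukocyte marker Ptprc, chosen after its values were seen, had 490, 620, 495 and 503 CPM in transplants and 59.9, 162 and 386 in primary tumors, without overlap. It was 2.72-fold higher (log2 fold change 1.44, SE 0.34, edgeR adjusted p = 0.0109) and passed in all 12 fits that left out a library. Lists of leukocyte types differed in direction, with medians from -0.70 for neutrophils to 1.42 for SLAM receptors, and how far the genes below follow the leukocyte content was not tested. Counts of positive genes in lists are to be read beside the 9011 of 19327 genes tested that had a positive log2 fold change. Counts of calls in lists are to be read beside the 3.04% of all genes that were higher and the 3.72% that were lower. In lists of this size a single call is near that share, so that it describes the gene and not the list.

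Receptors of the SLAM family, which tune NK cells, T cells and macrophages through contacts between leukocytes, had the highest median among the immune lists. All 11 measured members had a positive log2 fold change, with a median of 1.42, and 3 passed: Cd244a, Slamf9 and Cd48. Cd244a, the receptor 2B4, had 37.6, 22.5, 25.6 and 26.5 CPM in transplants and 2.33, 4.72 and 16.6 in primary tumors (log2 fold change 2.24, SE 0.47, edgeR adjusted p = 0.0042). Its ligand Cd48 had 49.7, 111.2, 75.1 and 32.3 CPM against 5.81, 19.9 and 56.1, where transplants 1 and 4 fell inside the primary range (log2 fold change 1.42, edgeR adjusted p = 0.0234). Slamf9, a member expressed by macrophages and dendritic cells, had 249, 189, 160 and 98.1 CPM against 3.54, 31.9 and 107.03 and was 4.62-fold higher (edgeR adjusted p = 0.00736). Without 1 library the number of members that passed ran from 2 to 7, with 6 without primary replicate 3, 5 without transplant replicate 4, and 7 without primary replicate 4.

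Of 17 NK cell receptor genes, 3 were higher, 0 were lower and the median was 0.84, with 11 genes positive and 6 negative. Klra4, the activating receptor Ly49D, had 40.7, 25.4, 63.6 and 27.5 CPM in transplants and 1.96, 5.46 and 18.8 in primary tumors, so that the groups did not overlap (log2 fold change 2.62, SE 0.64, edgeR adjusted p = 0.0126). In the library labelled as the parental tumor of line 402230, which had 0.109 CPM of Ptprc and 0 of the NK cell gene Klrd1, Klra4 was at 69.0 CPM. Klrd1, the CD94 chain shared by NKG2 receptors, had 7.56, 33.0, 30.3 and 7.91 CPM against 1.34, 4.04 and 10.3 (log2 fold change 1.95, edgeR adjusted p = 0.0307). Klrc2, an activating NKG2 chain, had 0.468, 9.20, 6.96 and 1.67 CPM against 0.0274, 0.160 and 2.90 (log2 fold change 2.92, edgeR adjusted p = 0.0217). For Klrd1 and Klrc2 the transplants split, with replicates 2 and 3 above every primary tumor and replicates 1 and 4 within their range. Klrk1, the receptor NKG2D, did not pass (38.0, 58.3, 92.5 and 46.8 CPM against a median of 14.1, adjusted p = 0.0669). The list had 0 calls without transplant replicate 3, 1 without transplant replicate 2 and 6 without primary replicate 3 or without primary replicate 4, and Ly49 and NKG2 genes have close copies among which reads may be split.

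Calls among T cell genes turned on 1 library and on the tool. Of 16 genes of the T cell receptor complex and its coreceptors 15 had a positive log2 fold change and the median was 1.05, but 0 passed, and without primary replicate 4 it was 11. With limma voom on all 48 tumors the count was also 11. Cd8a, the coreceptor of cytotoxic T cells, had 16.7, 44.7, 45.3 and 17.9 CPM in transplants and 0.606, 4.77 and 40.3 in primary tumors, the highest being replicate 4 (log2 fold change 1.73, edgeR adjusted p = 0.117). Without primary replicate 4 the log2 fold change of Cd8a was 2.62 (edgeR adjusted p = 0.00936), and that of Cd3e moved from 0.98 (adjusted p = 0.407) to 2.12 (adjusted p = 0.0222). Pdcd1, which encodes PD-1 itself, had 9.49, 17.1, 18.2 and 8.80 CPM against 0.411, 1.67 and 24.5, and its log2 fold change of 1.26 (edgeR adjusted p = 0.236) became 2.17 without that tumor (adjusted p = 0.0161). Cd8a, Cd3e and Pdcd1 were chosen after their values were seen. Primary replicate 4 was also the library with the most skeletal muscle RNA.

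Among genes of killing and of exhausted or activated CD8 T cells, 1 passed in each list of 12, against 3.04% of all genes, so the 2 calls describe those genes only. The killing list had 9 genes positive and 3 negative (median 1.17). The CD8 T cell list had 11 positive and 1 negative (median 0.70). Gzmk, a granzyme, had 2.29, 14.2, 17.8 and 3.55 CPM in transplants and 0.0587, 1.01 and 6.51 in primary tumors (log2 fold change 2.56, edgeR adjusted p = 0.0294), and it passed in 7 of the 12 fits that left out a library. Gzmb, the most abundant granzyme, had 246, 146, 393 and 224 CPM against 4.91, 61.6 and 146 and missed the threshold (log2 fold change 1.87, adjusted p = 0.0582). Cd160, a receptor of NK and CD8 T cells, had 2.05, 6.21, 8.81 and 1.75 CPM against 0.114, 0.522 and 2.17 (log2 fold change 2.51, edgeR adjusted p = 0.021). Both genes that passed were high in transplant replicates 2 and 3 and overlapped the primary tumors in replicates 1 and 4. Without primary replicate 4 the count was 4 in each list, as it was for killing without primary replicate 3, and it was 0 in each without transplant replicate 2 or 3 and for killing also without primary replicate 2, 6 or 8.

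**Figure D3:**
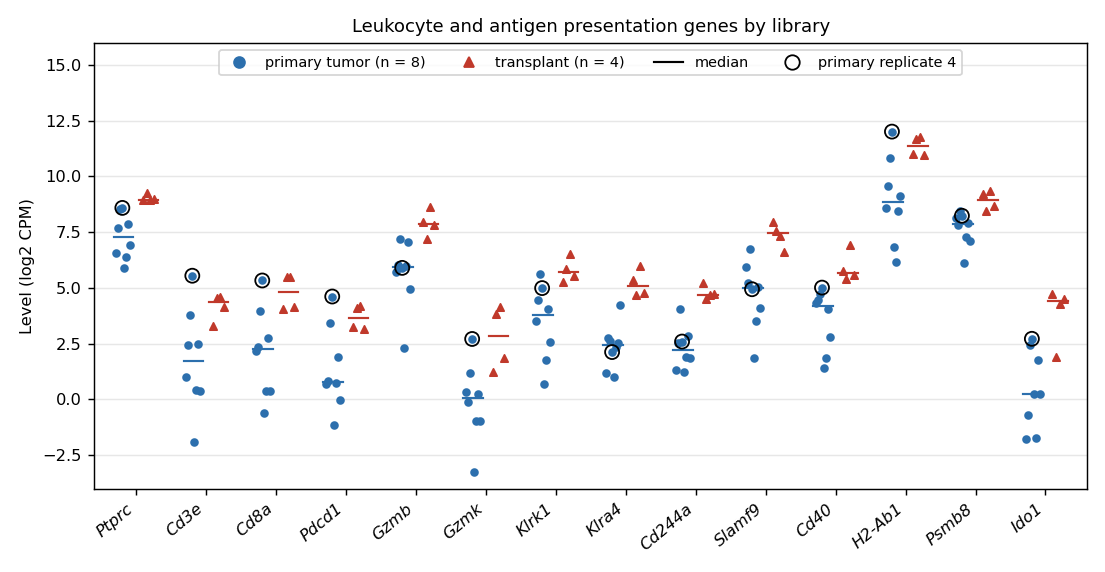
Level of 14 leukocyte and antigen presentation genes as log2 CPM (prior count 2) in each library, with primary tumors as blue circles (n = 8), transplants as red triangles (n = 4), bars at the medians and a ring around primary replicate 4. The ringed tumor lies among or above the transplants for Cd3e, Cd8a, Pdcd1 and H2-Ab1 and below all of them for Klra4, Cd244a, Slamf9, Cd40 and Psmb8.

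Genes of myeloid and antigen-presenting cells followed. Stap1, a signaling adaptor of hematopoietic cells, had 24.3, 22.4, 14.8 and 12.9 CPM in transplants and 0.724, 2.78 and 10.3 in primary tumors (log2 fold change 2.36, SE 0.46, edgeR adjusted p = 0.00299). Cd300ld, an activating receptor of myeloid cells, had 93.3, 67.3, 80.9 and 56.7 CPM against 3.95, 14.7 and 43.3 (log2 fold change 2.02, edgeR adjusted p = 0.00209). Cd40, through which helper T cells activate antigen-presenting cells, had 53.9, 41.8, 120 and 48.1 CPM against 2.64, 18.5 and 32.3 (log2 fold change 2.02, edgeR adjusted p = 0.00894). None of the 3 overlapped between the groups, as the rule that chose them required.

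The macrophage list as a whole had 1 gene called of 12, with a median of 0.52, and its summed level was 6553, 10312, 8050 and 4278 CPM in transplants against 1641, 4330 and 9602 in primary tumors. Aif1, the calcium-binding protein IBA1, was the gene called (log2 fold change 1.39, edgeR adjusted p = 0.0287), in 7 of the 12 fits that left out a library. Batf3, required for cross-presenting dendritic cells, was the gene called of 11 dendritic cell genes (log2 fold change 1.46, edgeR adjusted p = 0.0351), and it failed without any one of 8 of the 12 libraries. Treml4, a receptor of monocytes and macrophages, had 23.9, 25.9, 22.1 and 20.9 CPM against 0.777, 4.02 and 18.8. Its log2 fold change was 1.78 (edgeR adjusted p = 0.0379). Of 9 monocyte genes 7 were positive and 2 negative, with Treml4 called higher and Fn1, a matrix gene given below, called lower. The summed level of that list, Fn1 included, was 2071, 2467, 3634 and 4184 CPM in transplants against 2819, 4970 and 12430 in primary tumors. The cytokine Il10 had at most 3.07 CPM in any library and passed narrowly (log2 fold change 1.56, edgeR adjusted p = 0.0461). It was the 1 gene called of 12 anti-inflammatory macrophage genes. That list had a median of -0.31, with 4 genes positive and 8 negative, so that Il10 ran against it. Treml4 passed in 3 and Il10 in 2 of the 12 fits that left out a library. Neutrophil genes gave 0 calls of 11 and a median of -0.70, and Mmp9, the most abundant of them, had 108.5, 87.6, 57.3 and 139.1 CPM in transplants against 37.1, 397 and 2103 (adjusted p = 0.0776). B and plasma cells and mast cells also had 0 calls.

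In antigen presentation the genes called were processing enzymes. The 3 inducible proteasome subunits were the only genes called of 12 in MHC class I presentation. Psmb8 had 590, 345, 645 and 406 CPM in transplants and 69.7, 233 and 355 in primary tumors (log2 fold change 1.17, SE 0.34, edgeR adjusted p = 0.0302). Psmb9 and Psmb10 had log2 fold changes of 1.34 and 1.07 (edgeR adjusted p = 0.0428 and 0.0265). B2m, the invariant light chain, had 3935, 2666, 3417 and 2962 CPM against 792, 2436 and 3180, and neither it nor the heavy chain H2-D1 passed (adjusted p = 0.264 and 0.37). The list had 0 calls without transplant replicate 1, transplant replicate 3, primary replicate 6 or primary replicate 8, and 1 without primary replicate 5.

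In MHC class II presentation all 9 genes had a positive log2 fold change, the median was 1.31 and Ctss, a protease that trims the invariant chain, was the 1 gene called (log2 fold change 1.01, edgeR adjusted p = 0.0479). H2-Ab1 had 2089, 3306, 3453 and 1990 CPM in transplants and 71.3, 466 and 4130 in primary tumors, again with replicate 4 highest (adjusted p = 0.154). Without that tumor 8 of the 9 passed. The count was 2 without primary replicate 3 and 1 without transplant replicate 4. It was 0 without transplant replicate 1, 2 or 3 or primary replicate 1, 2, 5, 6, 7 or 8. Of 15 genes of the interferon-gamma response all had a positive log2 fold change and 2 passed, the number running from 1 to 4 without 1 library (4 without primary replicate 7, and 1 without transplant replicate 1, 3 or 4 or primary replicate 5, 6 or 8). Ido1, which degrades tryptophan, had 26.6, 3.74, 19.5 and 22.9 CPM against 0.246, 1.14 and 6.54 and was 7.80-fold higher (log2 fold change 2.96, SE 0.71, edgeR adjusted p = 0.0119), with transplant replicate 2 inside the primary range. Socs1, an inhibitor of cytokine signaling, was at 0.99 on the log2 scale (edgeR adjusted p = 0.0351). The chemokines Cxcl9 (1039, 451, 1140 and 1287 CPM against a median of 419) and Cxcl10 of that list did not pass (edgeR adjusted p = 0.391 and 0.424). Cxcl16, the ligand of CXCR6, passed (log2 fold change 1.22, edgeR adjusted p = 0.0108). It was the 1 gene called in a separate list of 16 chemokines, with 9 positive, 7 negative and a median of 0.18. The 16 type I interferon genes had 0 calls and a median of 0.30.

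Matrix genes were counted in 6 lists, in which 0 genes were higher. The number lower was 5 of 23 for basement membrane, 4 of 17 for elastic fibers, 4 of 18 for collagen processing enzymes, 3 of 18 for other collagens and 2 of 20 for small proteoglycans, beside 3.72% of all genes. Medians of these 5 lists ran from -0.71 to -0.95, and the median over all genes was -0.04. The fibrillar collagens had a median of -1.01 over 11 genes, yet 0 passed: Col3a1 had 3672, 2756, 1814 and 5887 CPM in transplants and 2674, 4954 and 23574 in primary tumors (log2 fold change -1.16, adjusted p = 0.113). Without transplant replicate 4, in which Col3a1, Col1a1 and Fn1 were highest of the transplants, 4 fibrillar collagens passed.

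In the basement membrane, the sheet of type IV collagen and laminin around vessels, muscle fibers and nerves, 5 of 23 genes were lower and 4 of them were chains of collagen IV. Col4a5 had 2.81, 3.67, 1.46 and 3.00 CPM in transplants and 6.40, 14.6 and 18.3 in primary tumors (log2 fold change -2.28, SE 0.60, edgeR adjusted p = 0.0194). Col4a6 had 0.026, 0.145, 0 and 0.131 CPM against 0.388, 1.11 and 3.42 (log2 fold change -4.08, SE 1.12, edgeR adjusted p = 0.0236), at a level where the fold change rests on few reads in transplants. The groups did not overlap for either of these chains. Col4a1 and Col4a2, the abundant pair, overlapped: Col4a1 had 853, 269, 366 and 1182 CPM against 562, 1533 and 3627 (log2 fold change -1.40, edgeR adjusted p = 0.0351), and Col4a2 had 506, 148, 216 and 806 CPM against 403, 873 and 2402 (log2 fold change -1.37, edgeR adjusted p = 0.0461). The list had 0 calls without transplant replicate 3, 2 without transplant replicate 1 or 2, 3 without primary replicate 7 or 8 and 9 without transplant replicate 4.

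These 4 genes lie head to head in pairs, transcribed away from each other. Col4a1 and Col4a2 on chromosome 8 share 22 bases at their annotated starts, and 1308 bases separate Col4a5 and Col4a6 on chromosome X. The windows of Col4a2 and Col4a6, chosen after their values were seen, are shown because each lies beside the start of the partner that moved with it. In that of Col4a2 (chr8:11312555-11312854, + strand) the capitals mark the 78 bases shared with the window of Col4a1 on the other strand. In that of Col4a6 (chrX:141474027-141474326, - strand) they mark CATTCC from position -5.
Col4a2: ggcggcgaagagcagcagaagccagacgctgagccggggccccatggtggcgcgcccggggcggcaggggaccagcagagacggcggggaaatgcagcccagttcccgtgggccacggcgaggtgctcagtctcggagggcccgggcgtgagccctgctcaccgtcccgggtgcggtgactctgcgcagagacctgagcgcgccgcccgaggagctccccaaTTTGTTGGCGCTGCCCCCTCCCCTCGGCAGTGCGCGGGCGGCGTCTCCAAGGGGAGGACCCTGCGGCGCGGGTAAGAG
Col4a6: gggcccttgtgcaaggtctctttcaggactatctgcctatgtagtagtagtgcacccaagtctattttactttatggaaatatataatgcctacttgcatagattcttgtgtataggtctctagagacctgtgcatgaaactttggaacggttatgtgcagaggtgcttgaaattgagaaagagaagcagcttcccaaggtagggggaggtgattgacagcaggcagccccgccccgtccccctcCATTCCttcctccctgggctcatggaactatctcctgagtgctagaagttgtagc

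Col15a1, a collagen that links basement membranes to the underlying tissue, had 24.8, 25.7, 17.3 and 53.9 CPM in transplants and 63.6, 123.03 and 1063 in primary tumors (log2 fold change -3.11, SE 0.68, edgeR adjusted p = 0.00652). Col6a1 and Col6a2, chains of the microfibrillar collagen VI, had log2 fold changes of -1.86 and -2.25 (edgeR adjusted p = 0.0219 and 0.0105). Col8a1, a short-chain collagen of vessel walls, had 30.1, 54.9, 22.8 and 65.5 CPM against 69.3, 153 and 277 (log2 fold change -1.87, edgeR adjusted p = 0.0123). Col15a1 and Col8a1 did not overlap between the groups, while the collagen VI chains overlapped through transplant replicate 4. Of the 18 other collagens, these 3 were called, with 0 called without transplant replicate 3, 1 without transplant replicate 2, 2 without transplant replicate 1 or primary replicate 8, and 5 without transplant replicate 4.

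Elastic fibers, which let tissue recoil, had 4 of 17 genes lower: Efemp1, Fbln2, Loxl1 and Efemp2. Efemp1, fibulin-3, had 20.2, 39.8, 14.8 and 28.9 CPM in transplants and 53.2, 145 and 419 in primary tumors. It was lower by 2.75 on the log2 scale (log2 fold change -2.75, SE 0.56, edgeR adjusted p = 0.00367) and passed in all 12 fits that left out a library. Fbln2, fibulin-2, had 289, 127.9, 102.9 and 309 CPM against 388, 742 and 1165 (log2 fold change -1.93, edgeR adjusted p = 0.0168). Neither fibulin overlapped between the groups. Loxl1, which cross-links elastin, had 205, 89.9, 108.3 and 247 CPM against 205, 360 and 454 (log2 fold change -1.06, edgeR adjusted p = 0.0162), and Efemp2, fibulin-4, was at -0.85 on the log2 scale (edgeR adjusted p = 0.0242). The list kept 1 call without transplant replicate 2 or 3.

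Among 18 collagen processing and cross-linking enzymes, Adamts2, Loxl3, P4ha3 and Loxl1 were lower. Adamts2, which removes the amino-terminal propeptide of procollagen, had 6.29, 37.4, 16.3 and 37.2 CPM against 63.4, 112.05 and 239 (log2 fold change -2.38, SE 0.64, edgeR adjusted p = 0.0216). Loxl3, a lysyl oxidase, had 96.3, 54.9, 52.6 and 108.4 CPM against 120, 232 and 691 (log2 fold change -1.92, edgeR adjusted p = 0.00813), and P4ha3, a prolyl hydroxylase subunit, was at -1.50 on the log2 scale (edgeR adjusted p = 0.0436). The collagen chaperone Serpinh1 had 1274, 511, 553 and 822 CPM against 622, 862 and 1981 and did not pass (adjusted p = 0.388). The count was 0 without transplant replicate 3, 2 without transplant replicate 1 and 7 without transplant replicate 4.

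The small proteoglycans Dcn and Bgn, which bind collagen fibrils, were the 2 of 20 genes called in their list. Bgn had 877, 1034, 531 and 1403 CPM in transplants and 1567, 2156 and 3499 in primary tumors, without overlap (log2 fold change -1.28, SE 0.32, edgeR adjusted p = 0.0151). Dcn had 550, 458, 423 and 454 CPM against 479, 1284 and 2402 (log2 fold change -1.56, edgeR adjusted p = 0.0221). Of 18 matrix metalloproteinases and inhibitors 1 was higher and 1 was lower. Mmp13, a collagenase, had 508, 40.2, 126.3 and 104.9 CPM against 4.38, 17.6 and 63.8 and was 7.61-fold higher (log2 fold change 2.93, SE 0.55, edgeR adjusted p = 0.00198), with replicate 2 inside the primary range and the call lost without transplant replicate 1. The proteoglycan list kept 1 call without transplant replicate 1 or 2 and 0 without transplant replicate 3. Mmp17, a membrane-anchored member, was lower (log2 fold change -1.44, edgeR adjusted p = 0.0431).

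Most markers of the cells that make matrix did not pass. In the list of fibroblast and sarcoma mesenchyme, with a median of -0.64 over 14 genes, 2 were lower: Fn1, fibronectin, with 759, 551, 564 and 2573 CPM in transplants against 2305, 3714 and 11456 (log2 fold change -2.10, edgeR adjusted p = 0.012), and Pdgfrb, the PDGF receptor of pericytes and fibroblasts (log2 fold change -1.41, edgeR adjusted p = 0.0449). The summed level of that list was 5229, 2970, 3733 and 7269 CPM against 5162, 9002 and 17152, while Vim did not pass (adjusted p = 0.563). The list had 0 calls without transplant replicate 1, 2 or 3 and 1 without primary replicate 2, 7 or 8. Pdgfrb was also the 1 gene called of 8 pericyte genes, and smooth muscle and myofibroblast genes had 0 of 12. Of other cell types, 1 of 7 markers was lower for lymphatic endothelium (Reln), 1 of 10 for Schwann cells (Ncam1) and 1 of 8 for regulatory T cells (Lrrc32), with log2 fold changes of -3.45, -1.28 and -1.56 (edgeR adjusted p = 0.0156, 0.0424 and 0.0341). The regulatory T cell list had a median of 0.11, with 5 of 8 genes positive, so that Lrrc32 ran against it. Reln passed in 10, Lrrc32 in 7 and Ncam1 in 5 of the 12 fits that left out a library. Blood endothelium had 0 calls of 13 and a median of -0.09. The part of mesenchymal cell content in the lower matrix genes was not tested.

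**Figure D4:**
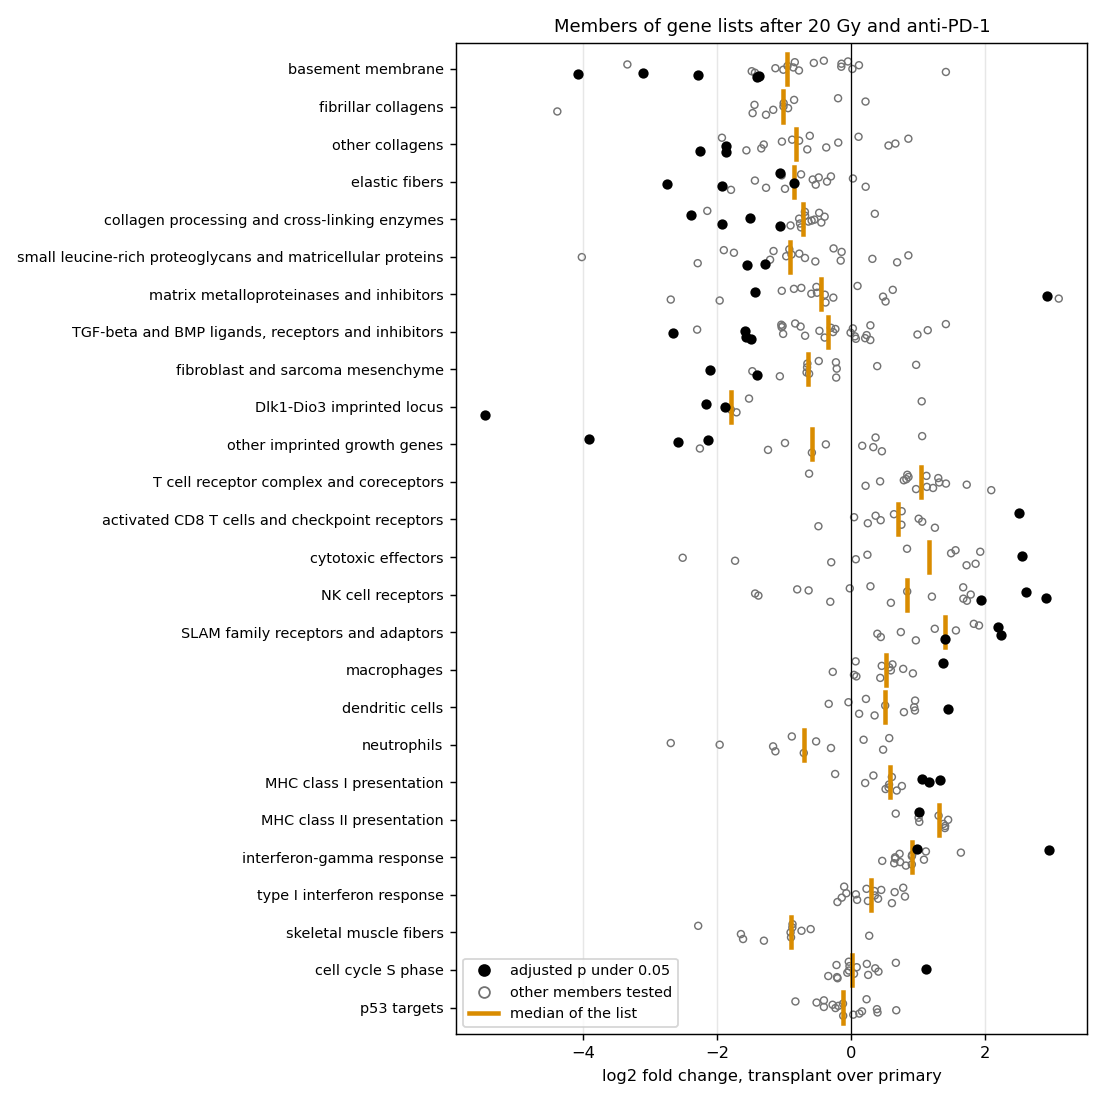
Log2 fold change of each measured member of 26 gene lists, transplant over primary, with filled points for genes with an adjusted p under 0.05, open points for the rest and an orange bar at the median of the list. Matrix lists have medians left of 0 and T cell, SLAM and MHC class II lists right of 0, and open points outnumber filled ones in every list.

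Ligands and receptors of the TGF-beta and BMP family, which set matrix production and cell fate in mesenchyme, had 4 of 28 genes lower and 0 higher, with a median of -0.34. The ligand Bmp6 had 2.39, 2.58, 2.31 and 5.56 CPM in transplants and 9.11, 16.7 and 48.4 in primary tumors, without overlap (log2 fold change -2.65, SE 0.54, edgeR adjusted p = 0.00356). The ligand Tgfb2 had 5.09, 6.71, 4.72 and 8.54 CPM against 6.15, 12.6 and 55.6 (log2 fold change -1.49, edgeR adjusted p = 0.039). Among receptors, Bmpr1b had 4.31, 5.94, 3.94 and 6.00 CPM against 6.88, 14.5 and 26.8 (log2 fold change -1.57, edgeR adjusted p = 0.012), and the co-receptor Tgfbr3 had 49.1, 50.3, 51.8 and 141.6 CPM against 89.4, 211 and 387 (log2 fold change -1.57, edgeR adjusted p = 0.00894). The BMP antagonist Grem1 had 1568, 245, 884 and 1178 CPM against 115.7, 475 and 962 and did not pass (adjusted p = 0.32), nor did the receptor Tgfbr2 (adjusted p = 0.197). The count was 1 without transplant replicate 3, 2 without transplant replicate 2 and 6 without transplant replicate 4.

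Ccn2, the matricellular protein CTGF and a target of both TGF-beta and YAP, had 18.7, 90.7, 26.1 and 55.7 CPM in transplants and 161, 186 and 562 in primary tumors (log2 fold change -2.54, SE 0.69, edgeR adjusted p = 0.023). It was the 1 gene called of 16 TGF-beta response genes and of 17 YAP and TAZ target genes, whose medians were -0.50 and -0.48. Its call was lost without transplant replicate 1 or without transplant replicate 3.

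Secreted factors, guidance receptors and metabolic enzymes completed the lower side. Igfbp2, which binds insulin-like growth factors, had 0.988, 0.242, 2.07 and 0.496 CPM in transplants and 2.66, 5.42 and 42.4 in primary tumors (log2 fold change -3.44, SE 0.91, edgeR adjusted p = 0.0202). Foxs1, a forkhead factor of perivascular cells, had 0.936, 1.69, 1.12 and 0.914 CPM against 2.74, 7.09 and 26.1 (log2 fold change -3.02, edgeR adjusted p = 0.00555). Robo2, a receptor of Slit guidance cues, had 0.182, 1.26, 0.389 and 0.783 CPM against 1.61, 3.92 and 10.6 (log2 fold change -2.85, edgeR adjusted p = 0.0302). All 3 stood below every primary tumor in every transplant, as the rule that chose them required, and at a few CPM or less.

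Aldh1l2, a mitochondrial enzyme of folate metabolism, had 3.92, 7.13, 4.77 and 5.48 CPM in transplants and 7.35, 30.0 and 58.8 in primary tumors (log2 fold change -2.53, SE 0.42, edgeR adjusted p = 0.000675). Gfpt2, which commits glucose to hexosamine synthesis, had 7.82, 16.3, 7.81 and 18.1 CPM against 26.0, 56.6 and 141.6 (log2 fold change -2.47, SE 0.45, edgeR adjusted p = 0.00136). Both genes passed in all 12 fits that left out a library. Tmeff2, Ccdc3 and the non-coding RNA 1700001L05Rik had log2 fold changes of -2.84, -2.60 and -2.41 (edgeR adjusted p = 0.011, 0.0405 and 0.00347). Ccdc3, a secreted protein, passed in 6 of the 12 fits that left out a library.

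Imprinted genes, expressed from the allele of a single parent and active in fetal growth, included some of the lowest ratios. Dlk1, the paternally expressed ligand-like protein of the Dlk1-Dio3 locus on chromosome 12, had 4.68, 4.11, 1.12 and 3.99 CPM in transplants and 4.32, 98.7 and 458 in primary tumors. It was 44.4-fold lower (log2 fold change -5.47, SE 1.28, edgeR adjusted p = 0.00986), and primary replicates 4 and 7, at 5.97 and 4.32 CPM, lay near or within the range of the transplants. The maternally expressed RNAs Rian and Mirg of the same locus were lower too (log2 fold change -1.88 and -2.16, edgeR adjusted p = 0.0191 and 0.0122). Meg3 had 3.27, 60.5, 11.8 and 28.6 CPM against 18.1, 81.7 and 190 and did not pass (adjusted p = 0.114). Of the 7 genes of the locus 3 were called, and 0 were without transplant replicate 3.

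Of 13 other imprinted genes 3 were lower. Sgce, which encodes epsilon-sarcoglycan, had 9.46, 12.6, 5.09 and 10.99 CPM in transplants and 19.5, 44.9 and 55.8 in primary tumors (log2 fold change -2.14, SE 0.26, edgeR adjusted p = 1.45e-06). Peg10, a retrotransposon-derived gene 98 bases from Sgce and transcribed the other way, had 7.87, 3.72, 2.41 and 5.90 CPM against 4.11, 83.1 and 131.9 (log2 fold change -3.91, SE 0.66, edgeR adjusted p = 0.000784). The one primary tumor that overlapped the transplants for Peg10 was again replicate 4. Ndn, necdin, had 8.81, 16.6, 10.8 and 6.58 CPM against 11.8, 38.4 and 213 (log2 fold change -2.59, edgeR adjusted p = 0.0303). The count of this list was 2 without transplant replicate 1, 2 or 3 and 5 without primary replicate 4 or 7.

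Cell cycle, stress and metabolic lists held few calls. Of 16 S phase genes 1 passed, Rrm2, the ribonucleotide reductase subunit, with 140, 52.8, 106.2 and 127.96 CPM in transplants against 29.2, 48.1 and 72.0 (log2 fold change 1.13, SE 0.22, edgeR adjusted p = 0.00315). The G2 and M phase list had 0 of 16 and a median of 0.12, and p53 targets had 0 of 16 and a median of -0.12. NRF2 targets, hypoxia response, cholesterol synthesis and Wnt pathway genes had 0 calls each. The skeletal muscle fiber list had 0 of 11 and a median of -0.89, and with the muscle level as a covariate 739 genes were higher and 671 lower in the whole comparison.

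The same comparison under the other 3 treatments used separate tumors. At 0 Gy with isotype antibody 750 genes were higher in transplants (3.88%) and 1238 lower (6.41%), at 20 Gy with isotype 478 (2.47%) and 464 (2.4%), and at 0 Gy with anti-PD-1 656 (3.39%) and 765 (3.96%). Of the 1307 genes called after 20 Gy and anti-PD-1, 1233 had the same sign at 0 Gy with isotype, 1195 at 20 Gy with isotype and 1244 at 0 Gy with anti-PD-1. The share with the same sign among all genes tested was not counted, and transplants of every treatment grew from the same line. A test of the difference itself, the interaction of tumor model with treatment, called 0 genes (0%) in edgeR against each of the 3 treatments, with 1237, 1860 and 920 genes at an unadjusted p under 0.05 in that order. DESeq2 called 4, 2 and 3 genes and limma voom 0 in each. The smallest edgeR adjusted p were 0.251 for Abi1 against 0 Gy with isotype, 0.512 against 20 Gy with isotype and 0.295 for Car4 against 0 Gy with anti-PD-1, so no gene is called particular to the combined treatment here.

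Sgce had log2 fold changes of -2.56, -2.22 and -2.16 at 0 Gy with isotype, 20 Gy with isotype and 0 Gy with anti-PD-1, close to its -2.14 after the combination. Efemp1 had -3.41, -2.86 and -2.84 in the same order, and Aldh1l2 had -3.04, -2.42 and -2.92. Values of other genes differed more, without a test that separated them. For Bmp6 they were -0.90, -0.64 and -0.89 against -2.65 after the combination (interaction adjusted p = 0.69, 0.51 and 0.91 in edgeR), and for Tgfb2 0.17, -0.33 and 0.06 against -1.49 (edgeR interaction adjusted p = 0.62, 0.52 and 0.93). Stap1 had 0.17, 1.29 and 0.01 against 2.36 (edgeR interaction adjusted p = 0.57, 0.58 and 0.81). For Rian they were -4.66, -4.49 and -4.28 against -1.88 (edgeR interaction adjusted p = 0.39, 0.51 and 0.78). The Dlk1-Dio3 locus as a list had medians of -3.89, -4.23 and -4.12 against -1.79, and neutrophil genes had 1.98, 0.06 and 2.28 against -0.70.

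**Figure D5:**
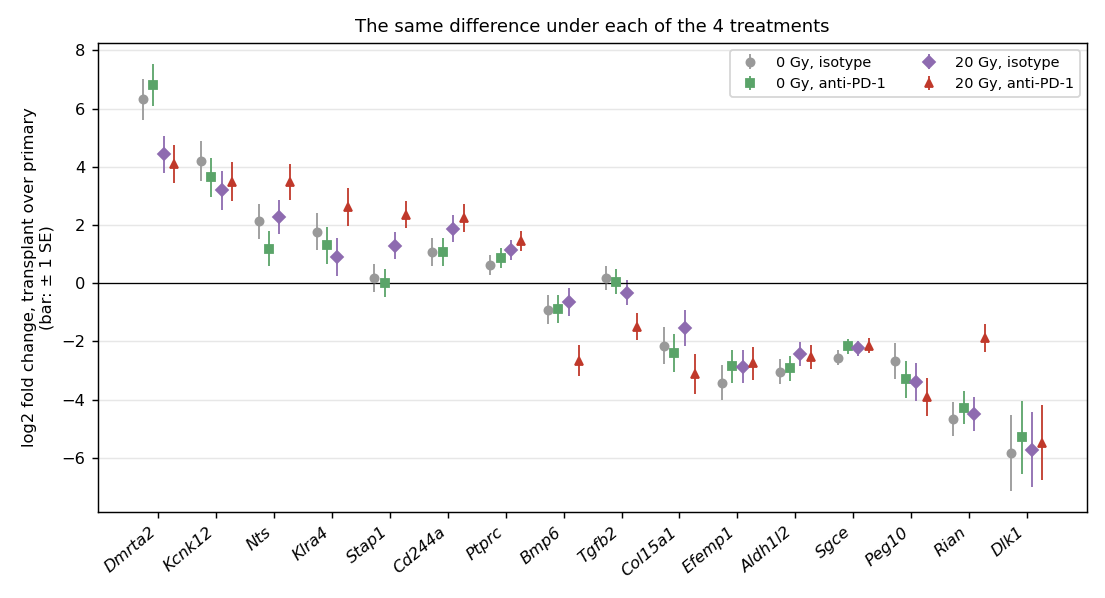
Log2 fold change, transplant over primary, of 16 named genes under each of the 4 treatments (4 transplants and 8 primary tumors in each), with bars of 1 SE. Red triangles, the combination, lie beside the other symbols for Efemp1, Aldh1l2 and Sgce and apart from them for Bmp6, Tgfb2, Stap1 and Rian, where no interaction passed.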

How the data were processed

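Gene counts of 50 libraries were used as deposited. According to labels and methods, stranded KAPA libraries were made from poly(A) RNA caught on oligo-dT beads, and the authors used Trimmomatic 0.36 for trimming paired reads, STAR for alignment to mm10, and counted reads per gene of GENCODE M17 by the HTSeq method. The deposited counts are raw whole numbers. The strand setting was not stated, so counts of overlapping genes and of close family members are uncertain. Symbols came from GENCODE M21, which matched 37408 of 37469 identifiers.

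Counts of 48 tumors in 8 groups (the 2 libraries of line 402230 entered no fit) were fitted in edgeR 4.0.16 under R 4.3.3 by the quasi-likelihood test, after filterByExpr and with TMM factors, a mean per group and no covariate. P-values were two-sided and adjusted over all genes tested by the Benjamini-Hochberg method, with 0.05 as threshold. CPM are counts per 1000000 reads of the TMM-scaled library total, and 1 CPM stood for 29.7 to 51.2 counts in the 12 libraries. The fit shared its spread over all groups, which the study's methods leave unstated. Alternatives were DESeq2 1.42.0, limma 3.58.1 with voom, other scalings and filters, a muscle covariate, the 12 libraries alone and leaving out each library.

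Genes were named by a rule: the 12 largest fold changes in each direction among genes called, without overlap and with an average log2 CPM of at least 2, then up to 4 genes called and the 2 most abundant genes of each of 49 lists. The comparison, the lists and the rule were chosen with earlier results of these data known, and they give no independent support. Replicates are separate tumors by their labels, and the transplants share 1 cell line.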

Additional observations from a re-analysis of the deposited data

Results flagged for a closer look

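Over 96 genes named in the text and both groups, 10 values lay beyond Dixon's 95% limit. The measure was the gap in log2 CPM to the nearest library of the group, as a share of the whole range of that group. Levels in brackets are CPM, on which the gaps would differ. Chance gives about 1 in 20 groups, and 192 were looked at. Among transplants, replicate 4 was high for Tgfbr3 (141.6 CPM, a gap of 0.949 of the range) and Bmp6 (5.56 CPM, 0.874), replicate 2 was high for Ptprc (620 CPM, 0.889) and low for Ido1 (3.74 CPM, 0.841), and replicate 3 was low for Dlk1 (1.12 CPM, 0.888). Among primary tumors, replicate 5 was low for Tgfbr2 (251 CPM, 0.615) and Gzmb (4.91 CPM, 0.538), and replicate 8 was high for Igfbp2 (42.4 CPM, 0.534). Primary replicate 4 was low for the imprinted genes Mirg (0.742 CPM, 0.595) and Peg10 (4.11 CPM, 0.585), in the tumor that also had the most skeletal muscle RNA and the highest Cd3e level.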

How the results depend on the processing

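Counts of genes called after 20 Gy and anti-PD-1 (588 higher, 719 lower) were the least stable result. Leaving out 1 library gave 74 to 1066 higher and 80 to 1287 lower: transplant replicates 1, 2 and 3 gave 318, 242 and 74 higher and 365, 285 and 80 lower, primary replicate 4 gave 1066 and 1287, and primary replicates 2, 6 and 8 gave 361, 306 and 321 higher. The 12 libraries alone gave 2 and 0 in edgeR, 17 and 4 in limma voom and 274 and 731 in DESeq2, the last pair of tools added after seeing the data. With no low-count filter they were 345 and 397, with limma voom 1024 and 570, and with DESeq2 739 and 1332. DESeq2 also called 914 genes lower at 20 Gy with isotype and 1263 at 0 Gy with anti-PD-1, and for the interactions 4, 2 and 3 genes, where edgeR called 0 and, without transplant replicate 4, 1 against 0 Gy with isotype. The cause of these shifts was not tested. Of 74 named genes that passed, 0 changed direction under any setting, and 54 lost their call without transplant replicate 3, 74 in the edgeR fit of the 12 libraries and 0 without primary replicate 4, with DESeq2 or with upper-quartile scaling. Xist and Ddx3y, which did not pass, reversed to -0.27 without transplant replicate 2 and to -0.036 without transplant replicate 3, with ranges of -0.27 to 2.35 and -0.036 to 0.61 over the fits that left out a library. No paired analysis was possible because replicate numbers follow accession order and pair no samples. At this depth, genes near 0.1 CPM such as Col4a6 in transplants rest on a few reads.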

Other observations

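The 2 libraries of line 402230, scaled with the tumors, have no replicate and enter no comparison. The library labelled as the parental tumor had 0.109 CPM of Ptprc, 0 of H2-Ab1 and 0 of Ctss, and the library labelled as the cell line had 77.9, 267 and 274 CPM, so these leukocyte markers go against what the labels would give. In the library with few leukocyte transcripts, several genes that were higher in transplants were present: Prl2c2 at 219 CPM, Klra4 at 69.0, Dlx1 at 54.4, Wincr1 at 38.2, Xlr3b at 14.4 and Dmrta2 at 3.63. Klra4 encodes an NK cell receptor. Stap1, Cd244a, Cd48, Slamf9, Cd40 and Cd300ld were at 0 CPM there, and Nts was at 0.0219 CPM.

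Xist, expressed from the inactive X chromosome of female cells, had 70.8, 600, 0.901 and 95.4 CPM in the transplants, and Y-linked Ddx3y had 33.9, 11.1, 51.8 and 36.1 CPM. Both were thus above 10 CPM in transplant replicates 1, 2 and 4. In the primary tumors Xist ran from 0.0978 to 277 CPM, and the 3 with Xist above 100 CPM had Ddx3y at 0.983 CPM or less. The 402230 libraries had 88.1 and 118.8 CPM of Ddx3y and 0.0437 and 0.206 of Xist.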
